A study of Mus musculus with 7 samples.

Results

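The plasminogen activator genes examined here were Plau, Plaur, Plat and Serpine2, chosen by symbol: 4 genes of the 56854 gene identifiers that all count files hold. All 4 were found and all 4 passed the filter on low counts, so every one was tested. RNA was sequenced from the whole shoulder joint of 7 mice, with each mouse giving 1 library, 2 weeks after surgical repair of the supraspinatus tendon in the left shoulder. Of the mice, 3 were wild type and 4 were Tnc-/-, lacking the matrix glycoprotein Tenascin C, and every shoulder in both groups had been operated on. Strain, age and sex were not given in the sources used here, and no unoperated shoulder was analysed here. In a whole joint, fewer cells of a type and less RNA per cell cannot be told apart.

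Plau encodes urokinase and Plat encodes tissue plasminogen activator, the proteases that cut the inactive zymogen plasminogen into plasmin. Plasmin dissolves fibrin and can release or activate matrix proteases and growth factors, which makes the system a part of clot removal and matrix turnover in healing tissue. Plaur encodes the urokinase receptor, which is anchored in the membrane by a lipid tail, gathers urokinase on the cell surface and is known for its presence on neutrophils, monocytes and migrating cells. Serpine2 encodes protease nexin 1, a serpin that inhibits thrombin, urokinase and tissue plasminogen activator.

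The receptor gene Plaur was higher in every Tnc-/- library than in any wild-type library, by a log2 fold change of 0.91, or 1.88-fold. Neither of the protease genes nor the inhibitor gene passed the test. Plat was lower in every Tnc-/- library, by 0.36 on the log2 scale with an adjusted p just above the threshold. Serpine2 overlapped between the genotypes before and after library composition was scaled, and Plau only after. As a result the number of Plaur reads per Plau, Plat or Serpine2 read in the same library was 1.95 to 2.39 times higher in Tnc-/-, a comparison that needs no scaling between libraries.

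The stretch of DNA just before the start of Plaur is shown because Plaur was the 1 gene of the 4 that passed the test, beside 29.0% of all genes tested. That of Serpine2 is shown because it was the only other gene of the 4 with a window. Both are the 250 bases before the start site in RefSeq on assembly GRCm38.p6, at chr7:24462233-24462482 on the plus strand for Plaur and at chr1:79858666-79858915 on the minus strand for Serpine2. RefSeq windows were matched for 2 of the 4 genes. Capitals mark matches on either strand to TGANTCA, the binding letters of the transcription factor AP-1, and to GGGCGG, the GC box bound by Sp1 family factors; matches may overlap one another.
Plaur: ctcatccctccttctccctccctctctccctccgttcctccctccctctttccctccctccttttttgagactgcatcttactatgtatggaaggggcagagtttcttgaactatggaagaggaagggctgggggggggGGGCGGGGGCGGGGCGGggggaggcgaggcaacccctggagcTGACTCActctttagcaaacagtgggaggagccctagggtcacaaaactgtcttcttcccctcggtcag
Serpine2: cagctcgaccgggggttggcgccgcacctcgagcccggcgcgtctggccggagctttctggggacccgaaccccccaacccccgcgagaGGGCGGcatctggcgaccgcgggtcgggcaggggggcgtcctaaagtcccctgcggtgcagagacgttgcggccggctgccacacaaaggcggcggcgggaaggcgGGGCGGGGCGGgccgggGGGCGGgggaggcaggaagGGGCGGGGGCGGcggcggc

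The Plaur window held 1 match to the AP-1 letters, TGACTCA, at bases -69 to -63 counted from the start site, and 3 matches to the GC box between bases -111 and -95. The Serpine2 window held 0 matches to the AP-1 letters and 6 to the GC box, and 78.8% of its bases were G or C, against 59.6% in the Plaur window. Among 32851 RefSeq windows of the same length, 6.75% held the AP-1 letters and 32.7% the GC box. These are matches of letters and were not tested for binding.

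Libraries held between 13464057 and 28191101 gene counts. Tests across all genes used edgeR's quasi-likelihood test on counts scaled by TMM, a scaling that assumes most genes do not differ, with Benjamini-Hochberg adjustment and a threshold of 0.05. The level of Tnc itself was 352 ± 75.5 TMM-scaled CPM (counts per 1e+06 counts of the library; SD, n = 3) in wild type and 41.8 ± 9.26 CPM (SD, n = 4) in Tnc-/-, with every Tnc-/- library below every wild-type library. Of 17791 genes tested, 29.0% were called, 1830 higher and 3329 lower in Tnc-/-. Scaling by library totals instead called 951 higher and 4541 lower and placed the median over all genes at -0.24 log2 units. The balance turned with limma voom, which called 707 higher and 266 lower, with Bonferroni adjustment in edgeR, at 18 higher and 4 lower, and with wild-type library 1 as the only wild-type library, at 469 higher and 356 lower. With the receptor gene background described next as a covariate it was nearly even, at 194 higher and 203 lower. The wild-type libraries were unlike one another: 2026 olfactory, vomeronasal and trace amine receptor genes, which a joint is not known to use, together made up 89.8 CPM of wild-type library 1, 1564 and 1113 CPM of libraries 2 and 3, and 33.3 to 41.5 CPM of the Tnc-/- libraries. This background was higher in every wild-type library than in any Tnc-/- library. A fit with it as a covariate therefore cannot cleanly separate background from genotype. The files of the genotypes also differ in form, with 126 identifiers found only for wild type and 87 found only for Tnc-/-. Counting and genotype therefore cannot be told apart here. Of 49 marker genes for 11 cell types of the joint, 4 had 0 counts in all 7 libraries (Itgam, Scx, Alas2 and Acp5), while other markers of tendon, cartilage, bone, muscle, vessel and marrow cells were present in all 7.

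Plaur (ENSMUSG00000046223), the receptor, had 587, 423 and 470 reads in wild-type libraries 1 to 3 and 1544, 787, 1150 and 1058 in Tnc-/- libraries 1 to 4. As a share of the library total this was 31.7, 31.4 and 32.3 CPM in wild type and 54.8, 40.3, 59.7 and 50.5 CPM in Tnc-/-. The 3 wild-type libraries were nearly level, the 4 Tnc-/- libraries were spread more widely, and the lowest of them, library 2, was still above every wild-type library.

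The TMM-scaled level of Plaur was 29.4 ± 1.85 CPM (SD, n = 3) in wild type and 55.2 ± 8.50 CPM (SD, n = 4) in Tnc-/-. The log2 fold change was 0.91 (SE 0.16) and the adjusted p 0.0074 in edgeR's quasi-likelihood test, at rank 677 of the 17791 genes by p. Without scaling, Plaur differed by 0.67 in mean log2 CPM (exact two-sided permutation test over samples, p = 0.0571, the smallest possible with 3 against 4). Among all genes tested, 10.3% were called higher in Tnc-/-, and 10.4% had every Tnc-/- library above every wild-type library on unscaled CPM, and 17.7% on TMM-scaled CPM, so both states are common in these data. The Plaur call held in each of the 7 fits that left out 1 library, with adjusted p up to 0.037 in edgeR. It was not past the threshold with wild-type libraries 2 and 3 both left out (log2 fold change 0.80). In that fit wild type is 1 library, the spread comes from the Tnc-/- libraries and wild type is assumed to vary like them. The call was also lost with the receptor gene background as a covariate (0.75, edgeR adjusted p = 0.164). That background was itself higher in every wild-type library, so this fit cannot cleanly separate background from genotype.

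**Figure D1:**
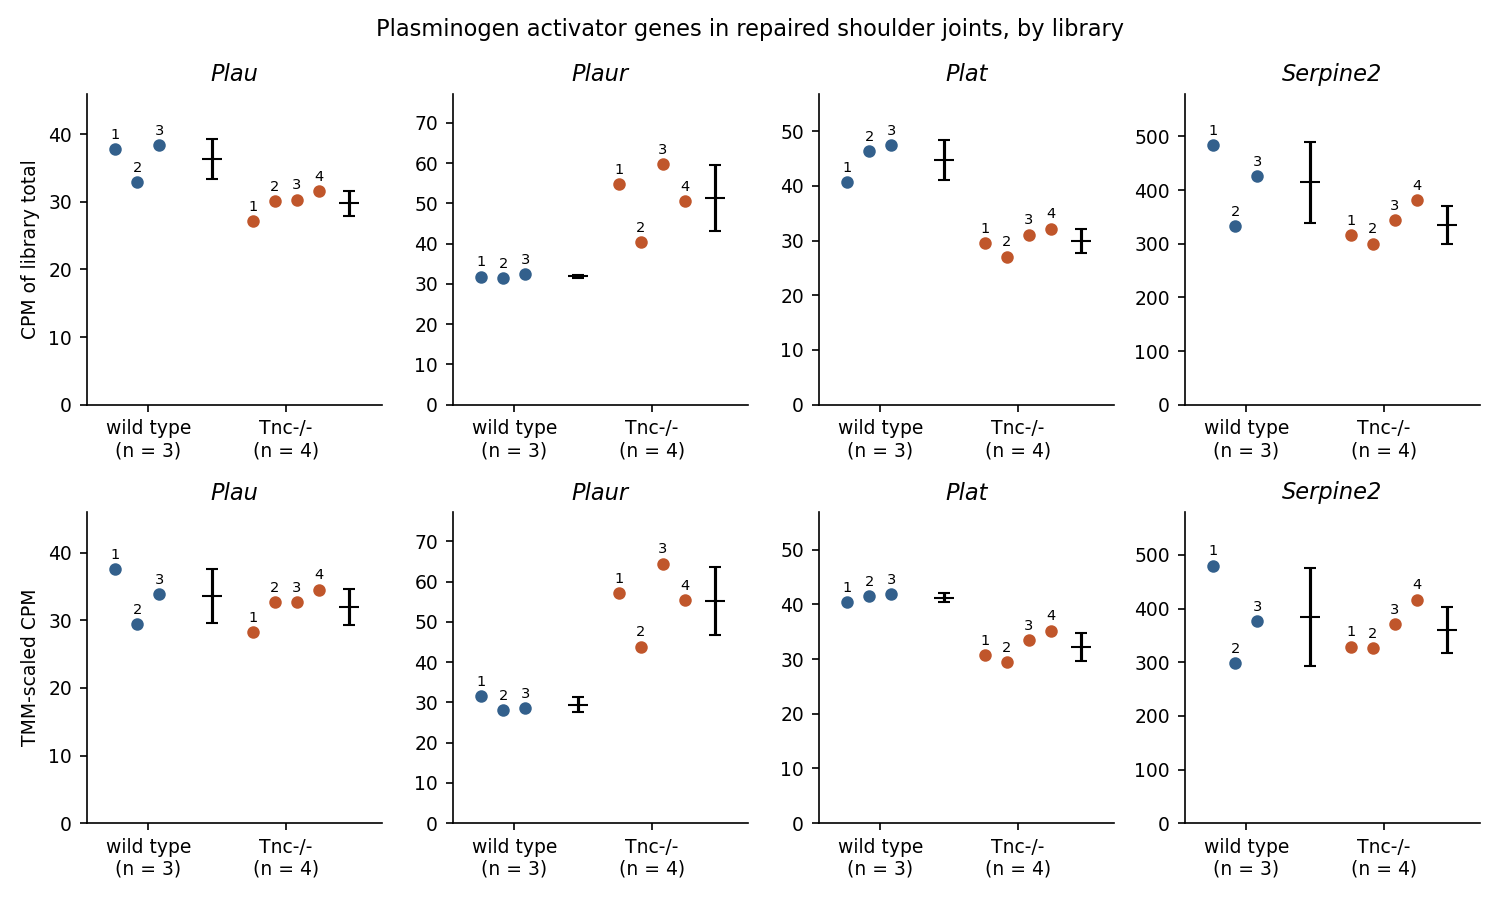
Each point is 1 library, numbered by replicate, and the bar beside each group is the mean with 1 SD (wild type n = 3, Tnc-/- n = 4); the upper row gives CPM of the library total and the lower row TMM-scaled CPM. Plaur is higher in all 4 Tnc-/- libraries in both rows, Plat is lower in both rows, and Plau is separated in the upper row and overlaps in the lower.

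Plat (ENSMUSG00000031538), tissue plasminogen activator, had 752, 624 and 689 reads in wild type and 831, 529, 598 and 673 in Tnc-/-. Its unscaled level was 40.6, 46.4 and 47.4 CPM in wild type, in library order, and 29.5, 27.1, 31.1 and 32.1 CPM in Tnc-/-. Every Tnc-/- library lay below every wild-type library on this scale, as was the case for 24.1% of all genes tested.

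The TMM-scaled level of Plat was 41.2 ± 0.775 CPM (SD, n = 3) in wild type and 32.2 ± 2.60 CPM (SD, n = 4) in Tnc-/-, again without overlap, which 17.4% of tested genes showed in this direction. The log2 fold change was -0.36 (SE 0.13), 1.28-fold lower, with an adjusted p of 0.0626 in edgeR, so Plat was not past the threshold. It was past it in 6 of the 21 alternatives run, among them DESeq2 (adjusted p = 0.00799, and 0.0175 on the genes that edgeR tested) and scaling by library totals (edgeR, adjusted p = 0.0122). Its log2 fold change lay between -0.60 and -0.27 in all 21.

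Plau (ENSMUSG00000021822), urokinase, had 699, 443 and 557 reads in wild type and 764, 587, 583 and 660 in Tnc-/-. The unscaled levels were 37.8, 32.9 and 38.3 CPM in wild type and 27.1, 30.1, 30.3 and 31.5 CPM in Tnc-/-. The groups did not overlap on this scale, but wild-type library 2 was only slightly above Tnc-/- library 4.

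After TMM scaling the level of Plau was 33.6 ± 4.04 CPM (SD, n = 3) in wild type and 32.0 ± 2.66 CPM (SD, n = 4) in Tnc-/-, and the groups overlapped. The log2 fold change was -0.07 (SE 0.15; edgeR, adjusted p = 0.748). With library totals it was -0.31, which relative to the median of all genes under that scaling was -0.07. The sign turned to 0.0074 with no filter on low counts and to 0.11 without wild-type library 1, and Plau was past the threshold in 0 of the 21 alternatives.

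Serpine2 (ENSMUSG00000026249), the inhibitor, was by far the most deeply covered of the 4, with 8945, 4481 and 6194 reads in wild type and 8896, 5853, 6621 and 7970 in Tnc-/-. Its unscaled levels were 483, 333 and 426 CPM in wild type and 316, 299.7, 344 and 381 CPM in Tnc-/-. The groups overlapped, and the spread within wild type, from library 2 to library 1, was wider than the difference between the group means.

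The TMM-scaled level of Serpine2 was 385 ± 91.4 CPM (SD, n = 3) in wild type and 361 ± 42.7 CPM (SD, n = 4) in Tnc-/-, and its log2 fold change was -0.09 (SE 0.19) with an edgeR adjusted p of 0.743. Without wild-type library 1, in which Serpine2 was highest, the log2 fold change was 0.19, and with wild-type library 1 alone as the reference it was -0.42, neither past the threshold in edgeR. With TMM scaling the direction of Serpine2 therefore rested on that library. With library totals its log2 fold change was -0.32 (edgeR, adjusted p = 0.136), which relative to the median of all genes under that scaling was -0.08. Its span of 66.98 kb is the longest of the 4 in GENCODE M21, where Plat spans 25.1 kb, Plaur 13.5 kb and Plau 6.73 kb, and where no other gene overlaps any of the 4.

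**Figure D2:**
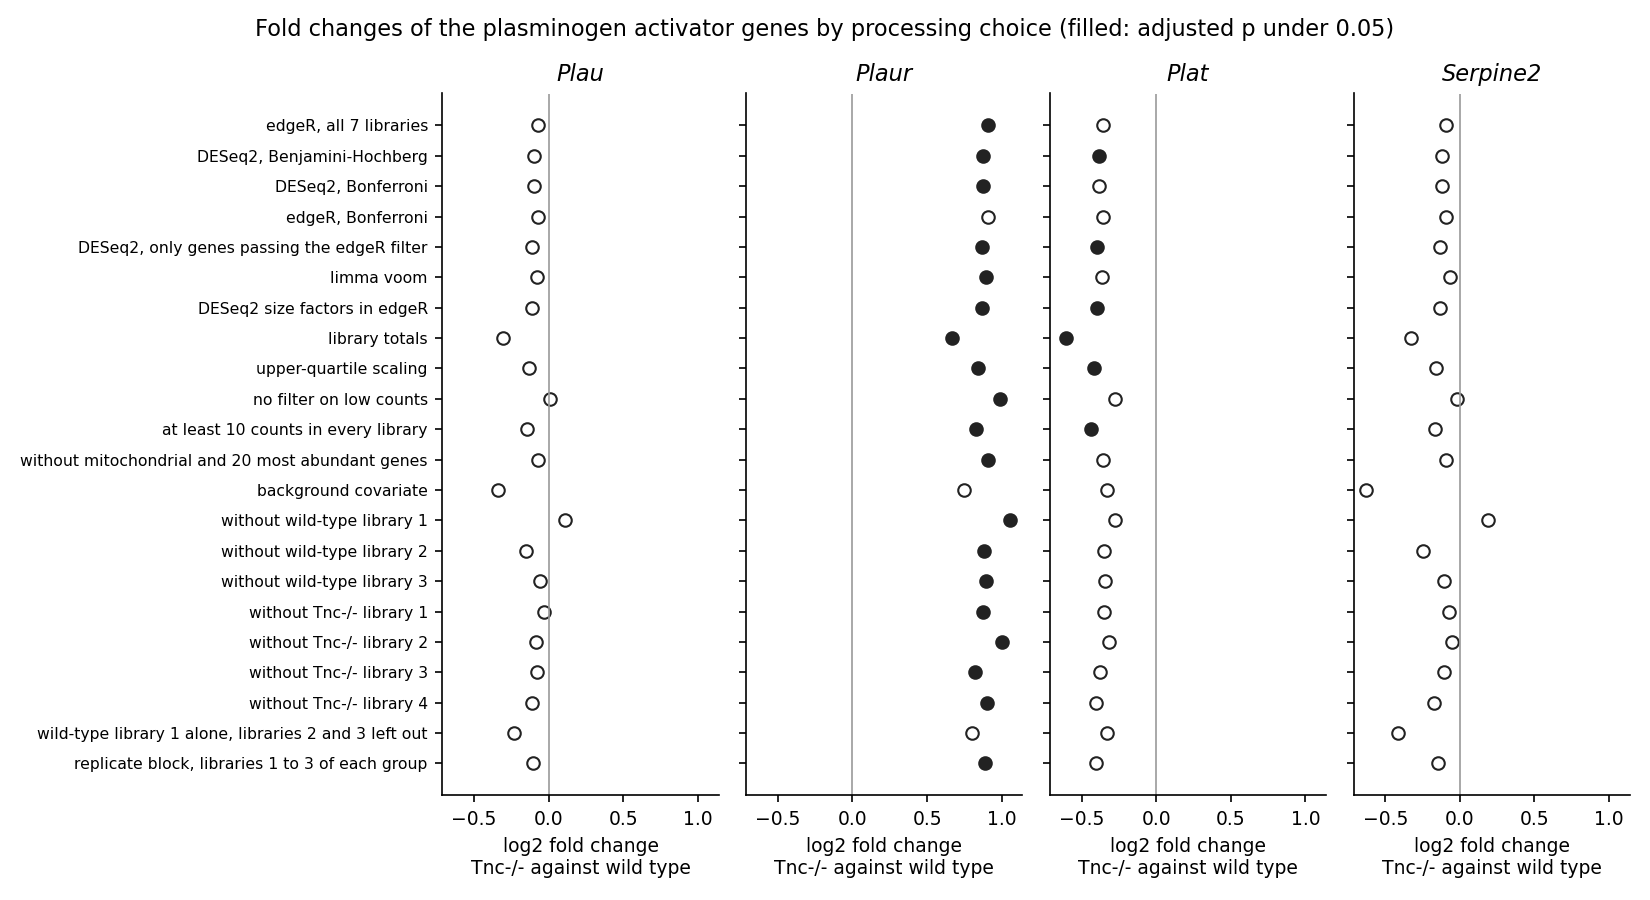
Horizontal position is the log2 fold change of Tnc-/- against wild type, with 1 row for each way of processing the same counts; filled points have an adjusted p under 0.05. Plaur stays between 0.67 and 1.05 throughout, Plat between -0.60 and -0.27, and Plau and Serpine2 lie on both sides of 0.

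The 6 ratios between the genes were computed within each library from the raw reads. Plaur reads per Plau read were 0.840, 0.955 and 0.844 in wild-type libraries 1 to 3 and 2.02, 1.34, 1.97 and 1.60 in Tnc-/- libraries 1 to 4. In other words Plau had more reads than Plaur in all 3 wild-type libraries and fewer in all 4 Tnc-/- libraries. The difference in log2 ratio was 0.96, from -0.19 ± 0.11 (SD, n = 3) to 0.77 ± 0.28 (SD, n = 4).

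Plaur reads per Plat read were 0.781, 0.678 and 0.682 in wild type and 1.86, 1.49, 1.92 and 1.57 in Tnc-/-, a difference of 1.26 log2 units, or 2.39-fold. Plaur reads per Serpine2 read were 0.0656, 0.0944 and 0.0759 in wild type and 0.174, 0.134, 0.174 and 0.133 in Tnc-/-, a difference of 0.97. For these 3 ratios with Plaur the groups did not overlap, and each had the smallest p the design allows (exact two-sided permutation test, p = 0.0571), so none of the 6 could reach 0.05. All 3 share the same Plaur reads, so they are not separate results.

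The ratios without Plaur overlapped between the genotypes. Plau per Plat differed by 0.29 log2 units (exact permutation test, p = 0.114), with wild-type library 1 at 0.930 inside the Tnc-/- range of 0.919 to 1.11. Plat per Serpine2 differed by -0.29 (exact permutation test, p = 0.286), which became -0.11 without wild-type library 2 and -0.47 without wild-type library 1, and Plau per Serpine2 by 0.0074 (exact permutation test, p = 0.971). Plau reads per Serpine2 read were 0.0781 to 0.0989 in wild type and 0.0828 to 0.1003 in Tnc-/-, and the sign of their difference turned without wild-type library 1 (-0.08) and without Tnc-/- library 2 (-0.05).

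**Figure D3:**
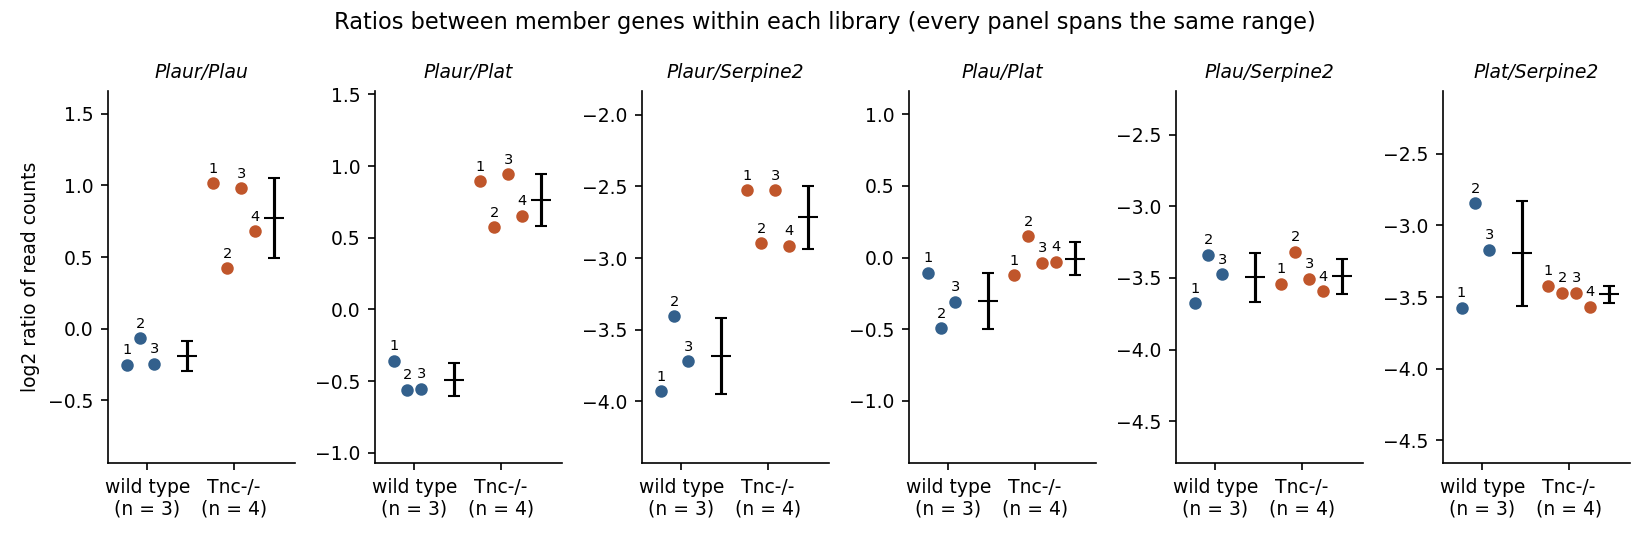
Each point is the log2 ratio of the read counts of a pair of genes in 1 library, numbered by replicate, with the group mean and 1 SD beside it (wild type n = 3, Tnc-/- n = 4). The 3 panels with Plaur show Tnc-/- libraries above all wild-type libraries; the other 3 overlap.

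Levels of different genes can be set side by side only per length, here as unscaled CPM per kb of exon in GENCODE M21. The length is the union of all annotated exons, at 2367 bases for Plau, 2617 for Plaur, 6241 for Plat and 8287 for Serpine2. In wild type the inhibitor Serpine2 was highest at 50.0 ± 9.17 CPM per kb (SD, n = 3), followed by Plau at 15.4 ± 1.26, Plaur at 12.2 ± 0.181 and Plat at 7.18 ± 0.584. In Tnc-/- the order was Serpine2 at 40.4 ± 4.29 (SD, n = 4), Plaur at 19.6 ± 3.16, Plau at 12.6 ± 0.792 and Plat at 4.80 ± 0.352. Plau and Plaur, the neighbours in this order, changed places: Plau was above Plaur in every wild-type library (13.9 to 16.2 against 12.0 to 12.4 CPM per kb), and Plaur above Plau in every Tnc-/- library (15.4 to 22.8 against 11.4 to 13.3 CPM per kb). Neighbouring ranges did not overlap in either genotype. In all 7 libraries the inhibitor was the highest of the 4 on this measure and Plat the lowest. The place of Plat depends on the length used, and transcripts may be shorter than the union. Before division by length, Plat was above Plau and Plaur in every wild-type library. Its unscaled range there was 40.6 to 47.4 CPM, against 32.9 to 38.3 for Plau and 31.4 to 32.3 for Plaur.

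Values of cell type markers moved with some of these genes. Of the 11 marker lists, those of neutrophils, erythroid cells, skeletal muscle and Schwann cells had a summed level that was higher in every Tnc-/- library, as Plaur was, both unscaled and after TMM scaling. The 6 neutrophil markers S100a8, S100a9, Camp, Ngp, Ltf and Mpo had a summed level of 5437, 2913 and 3219 CPM over wild-type libraries 1 to 3, and of 9802, 5540, 7539 and 6597 CPM over Tnc-/- libraries 1 to 4, so that every Tnc-/- library was higher, and 4 of the 6 markers were called higher. Within Tnc-/- the library with the lowest neutrophil sum, library 2, was also the lowest in Plaur, but the library with the highest neutrophil sum, library 1, was second to library 3 in Plaur (54.8 against 59.7 CPM). Within wild type the neutrophil sum of library 1 was well above those of libraries 2 and 3, while Plaur was between 31.4 and 32.3 CPM in all 3.

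Plaur per 1000 CPM of neutrophil markers was 5.83, 10.8 and 10.05 in wild type and 5.59, 7.27, 7.92 and 7.66 in Tnc-/-, and these ranges overlapped. Wild-type library 1 and Tnc-/- library 2, with neutrophil sums of 5437 and 5540 CPM, had 31.7 and 40.3 CPM of Plaur. The 6 macrophage markers, of which Itgam was at 0, summed to 439.8 to 596 CPM in wild type and 422 to 475 CPM in Tnc-/-, with 0 called higher and 1 called lower. Plaur per 1000 CPM of macrophage markers was 53.2 to 73.6 in wild type and 95.4 to 139 in Tnc-/-, without overlap. The 5 erythroid markers, of which Alas2 was at 0, summed to 4844 to 8476 CPM in wild type and 11217 to 23393 CPM in Tnc-/-, with 3 called higher and 0 lower, and Plaur per 1000 CPM of them overlapped at 3.74 to 6.49 in wild type and 2.34 to 4.51 in Tnc-/-. The 5 skeletal muscle markers summed to 19486 to 22910 CPM in wild type and 23482 to 33050 CPM in Tnc-/-, with 1 called higher and 0 lower. The 4 Schwann cell markers summed to 91.4 to 116 CPM and 118.8 to 131 CPM, again with 1 called higher and 0 lower. The part of these cell types in the Plaur difference was not tested.

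Endothelial cells are a known source of tissue plasminogen activator. The 5 endothelial markers Pecam1, Cdh5, Kdr, Tek and Tie1 summed to 549.8 to 593 unscaled CPM in wild type and 418 to 493 CPM in Tnc-/-, lower in every Tnc-/- library on this scale, with 0 of the 5 called higher and 1 called lower. After TMM scaling the endothelial sums overlapped, at 492 to 588 CPM in wild type and 436 to 536 CPM in Tnc-/-, and the median log2 fold change of the 5 markers was -0.05. Plat per 1000 CPM of endothelial markers was 68.6, 84.3 and 83.3 in wild type and 70.5, 55.0, 70.0 and 66.8 in Tnc-/-, and wild-type library 1 fell inside the Tnc-/- range. The 6 tendon fibroblast markers, with Scx at 0, summed to 11960 to 17380 CPM in wild type and 12151 to 21031 CPM in Tnc-/-, with 0 called higher and 1 called lower, the tendon transcription factor gene Mkx (log2 fold change -0.92; edgeR, adjusted p = 0.0379). The collagen gene Col1a1, which bone cells also express, made up 75.0 to 81.5% of this sum. Serpine2 per 1000 CPM of the 6 markers was 27.8, 27.8 and 28.1 in wild type and 26.0, 23.04, 24.8 and 18.1 in Tnc-/-, lower in every Tnc-/- library, but with Col1a1 left out of the sum it was 141, 111 and 118 in wild type and 107, 125, 115 and 93.6 in Tnc-/-, and the groups overlapped. Plau per 1000 CPM of the same markers overlapped. The part of endothelial and fibroblast content in these values was not tested.

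**Figure D4:**
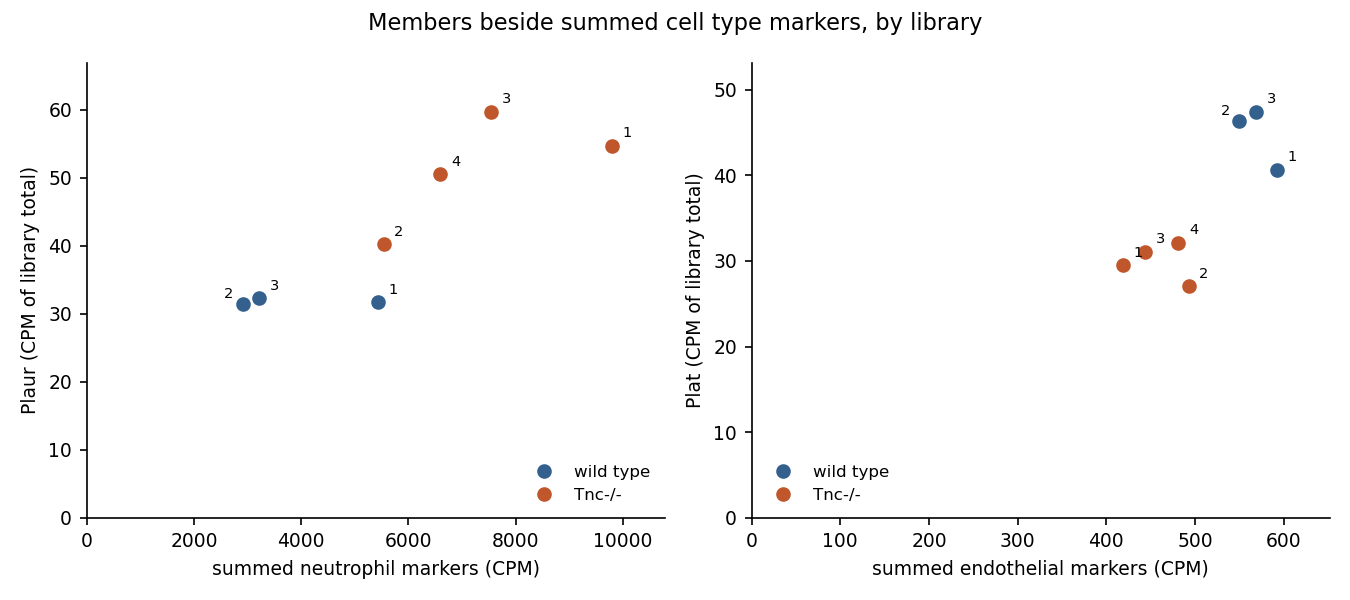
Each point is 1 library, numbered by replicate; the left panel sets Plaur against the summed level of 6 neutrophil markers and the right panel Plat against the summed level of 5 endothelial markers, all in CPM of the library total. Wild-type libraries span 2913 to 5437 CPM of neutrophil markers at a nearly constant Plaur level, and Tnc-/- libraries are higher on both axes of the left panel and lower on both axes of the right panel; after TMM scaling the endothelial sums overlap (492 to 588 CPM in wild type, 436 to 536 CPM in Tnc-/-).

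A list of 26 further genes of the pathway was examined in the same fit, of which 19 could be tested. Of these, 1 was called higher and 4 lower in Tnc-/- and 14 were not called, beside 10.3% higher and 18.7% lower among all genes tested. The median log2 fold change of the 19 was 0.03, against -9.0e-04 over all genes. The split of the calls depended on the setting: without wild-type library 1 it was 6 higher and 6 lower of 21 tested, where all genes gave 5335 higher and 8778 lower of 21989, and with limma voom 1 higher and 0 lower of 19. Nothing particular to the pathway is read from these counts.

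Among 8 receptors, cofactors and clearance genes, all tested, 1 was called higher and 0 lower. It was Lrp1, the endocytic receptor that clears complexes of plasminogen activators with serpins. Lrp1 was at 606, 424 and 479 TMM-scaled CPM in wild-type libraries 1 to 3 and 766, 730, 1001 and 993 CPM in Tnc-/- libraries 1 to 4, so the groups did not overlap. The log2 fold change was 0.79 (SE 0.20; edgeR, adjusted p = 0.0207). The call held in 3 of the 7 fits that left out a library. It was lost in the fits without wild-type libraries 2 and 3 and Tnc-/- libraries 3 and 4, each left out singly, the highest edgeR adjusted p being 0.0803. With wild-type library 1 alone as the reference the log2 fold change was 0.52 (edgeR, adjusted p = 0.234), and with the receptor gene background as a covariate 0.35 (edgeR, adjusted p = 0.578).

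Mrc2, a collagen uptake receptor that can form a complex with the urokinase receptor, had a log2 fold change of 0.69 (SE 0.23) and was not past the threshold in edgeR, at an adjusted p of 0.0506. Anxa2 and S100a10, which together form a binding site for tissue plasminogen activator and plasminogen on the cell surface, had log2 fold changes of 0.21 and 0.03 with adjusted p of 0.432 and 0.908 (edgeR). For Plgrkt, a plasminogen receptor of the membrane, the value was 0.35 (edgeR, adjusted p = 0.257).

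Of 6 further inhibitors 3 could be tested, and 1 was called lower. It was Serpini1, neuroserpin, an inhibitor of tissue plasminogen activator known from the nervous system, at 3.81, 20.7 and 15.4 TMM-scaled CPM in wild type and 2.15, 2.28, 2.80 and 1.67 CPM in Tnc-/-. Its log2 fold change of -2.58 (SE 0.55), with an edgeR adjusted p of 0.011, came mostly from wild-type libraries 2 and 3, whose mean was 5.30 times that of library 1 on unscaled CPM, and with those libraries left out it was -0.78 (edgeR, adjusted p = 0.264). With the receptor gene background as a covariate it was -0.05 (edgeR, adjusted p = 0.971). The call held in each of the 7 fits that left out 1 library, with adjusted p up to 0.0499 in edgeR, and was lost with limma voom (adjusted p = 0.114). Serpinb2, another inhibitor of urokinase, was low, at 0.598 to 2.25 CPM in wild type and 2.14 to 4.44 CPM in Tnc-/- after TMM scaling, and its log2 fold change of 1.32 (SE 0.58) was not past the threshold (edgeR, adjusted p = 0.12).

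Of 8 genes for the zymogen, fibrin and other substrates, 4 could be tested and 3 were called lower: Pdgfc and Pdgfd, growth factors that extracellular proteases including the plasminogen activators cut into active form, and Hgf, a growth factor of similar fold to plasminogen. Pdgfc was at 35.05, 28.0 and 43.4 TMM-scaled CPM in wild type and 22.2, 21.6, 26.1 and 26.3 CPM in Tnc-/-, lower by a log2 value of -0.56 (SE 0.18) with an edgeR adjusted p of 0.0465. Unlike Serpini1, Pdgfc was lower in wild-type library 2 than in library 1. Its call was lost in 5 of the 7 fits that left out a library, all but those without wild-type library 1 or 2, with adjusted p up to 0.182 in edgeR. It was also lost with wild-type library 1 alone as the reference (-0.55; edgeR, adjusted p = 0.103) and with the background covariate (-0.62; edgeR, adjusted p = 0.307).

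Pdgfd and Hgf followed the wild-type libraries with the high receptor gene background. Pdgfd was at 16.4, 53.03 and 47.02 TMM-scaled CPM in wild type and 11.1, 15.7, 11.8 and 12.6 CPM in Tnc-/-. Its log2 fold change was -1.60 (SE 0.36; edgeR, adjusted p = 0.0129), -0.37 with wild-type libraries 2 and 3 left out, and 0.15 with the background covariate. The call held in 6 of the 7 fits that left out a library; without wild-type library 3 the edgeR adjusted p was 0.0625. Hgf was at 4.08, 10.2 and 6.74 CPM in wild type and 2.33, 2.28, 2.63 and 0.889 CPM in Tnc-/-, and its log2 fold change of -1.78 (SE 0.52), with an edgeR adjusted p of 0.0343, was past the threshold in 1 of the 7 fits leaving out a library, the one without wild-type library 1. For Hgf the log2 fold change was -1.01 with wild-type libraries 2 and 3 left out and -0.58 with the covariate. For comparison, the mean of wild-type libraries 2 and 3 over library 1 on unscaled CPM was 3.41 for Pdgfd and 2.31 for Hgf but 1.005 for Plaur, 0.943 for Plau, 1.15 for Plat and 0.785 for Serpine2. The part of the background in these genes was not tested beyond the covariate, which was itself higher in every wild-type library. In GENCODE M21 each of Lrp1, Serpini1, Pdgfc and Pdgfd shares its span with 1 other gene and Hgf with 2, so reads of overlapping exons could have been split or dropped.

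**Figure D5:**
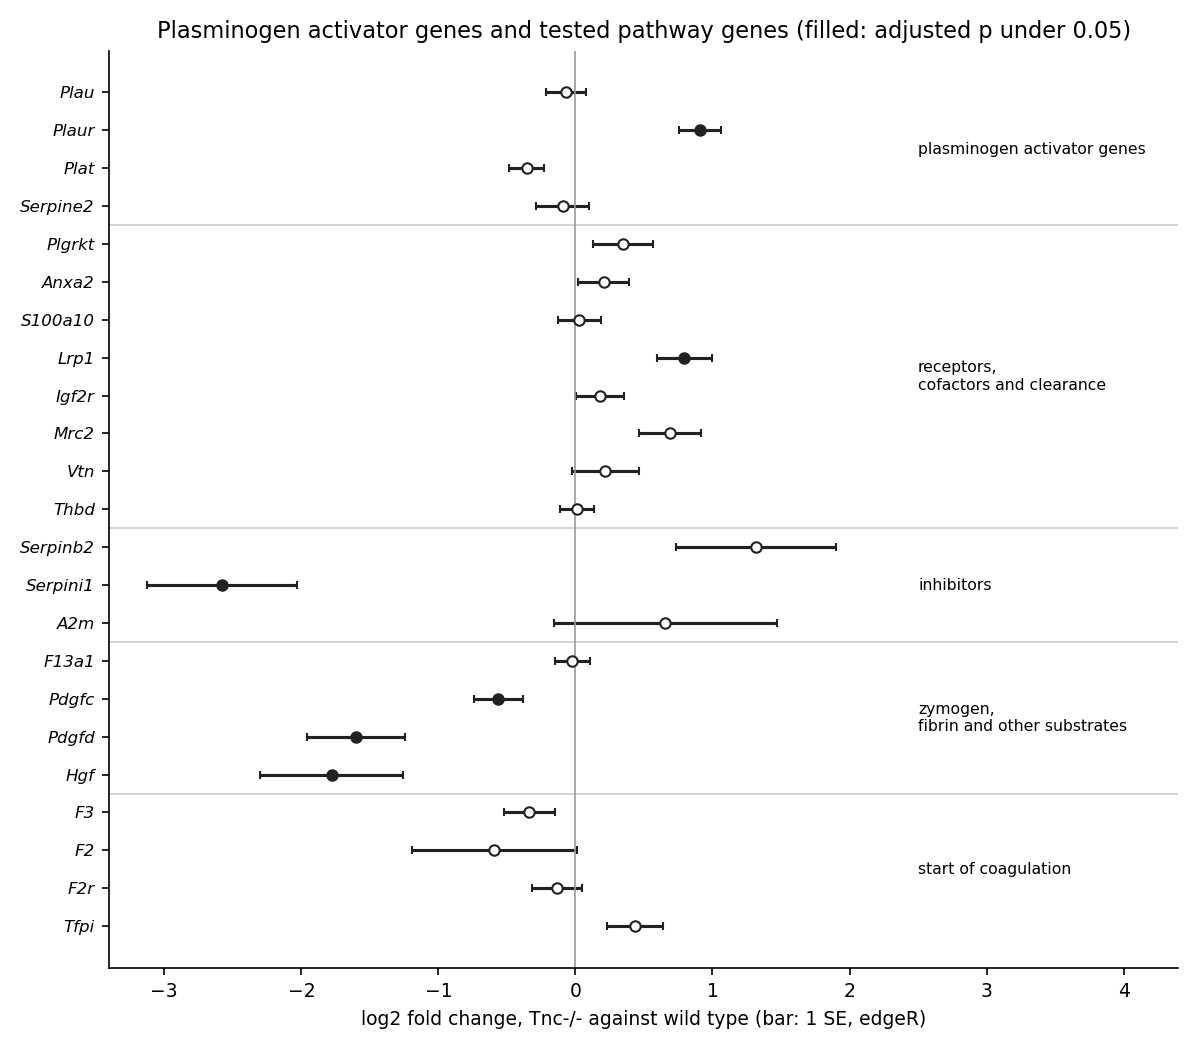
Points are log2 fold changes of Tnc-/- against wild type from edgeR with 1 SE, for the 4 plasminogen activator genes and the 19 tested genes of the pathway list, grouped by role; filled points have an adjusted p under 0.05. Plaur and Lrp1 are the filled points to the right of 0, and Serpini1, Pdgfc, Pdgfd and Hgf those to the left.

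Plasminogen itself and fibrinogen, which the liver supplies through the blood, had few or no counts in these files. Plg was between 0 and 0.964 unscaled CPM in the 7 libraries, and the fibrinogen genes Fga, Fgb and Fgg had 0 counts in all 7, as did the inhibitor gene Serpina5. The macrophage, tendon, erythroid and osteoclast markers Itgam, Scx, Alas2 and Acp5 are also listed at 0 beside abundant markers of the same cells, so a 0 in these files may be a gene that was not counted, and no upper limit is given for the genes listed at 0. Of the 4 genes that start coagulation or sense thrombin, 0 were called in either direction by edgeR and 0 by DESeq2. They included F3, tissue factor, whose TMM-scaled groups did not overlap (16.7 to 20.05 CPM in wild type, 12.3 to 15.8 CPM in Tnc-/-) and whose log2 fold change was -0.34 (SE 0.18; edgeR, adjusted p = 0.201). In edgeR 0 of the 4 had an unadjusted p under 0.05, the lowest being 0.0604, of Tfpi.

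The genes whose pattern over the 7 libraries was most like each of the 4 were found by Pearson's correlation of log2 TMM-scaled CPM among 12926 genes, and are given as a description. Plaur was most like Cherp (r = 0.996), Tnip2 (0.992) and Tle3 (0.991). All 3 were higher in Tnc-/-, with log2 fold changes of 0.73, 0.62 and 0.87. The gene at rank 100 still had r = 0.96, so many genes share this pattern of 3 level wild-type libraries and higher Tnc-/- libraries.

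Plat was most like Pard6g (r = 0.986), Tmem151a (0.984) and Olfml2a (0.980), with log2 fold changes of -0.77, -1.43 and -0.48. Serpine2 was most like Sat2 (r = 0.987), Gnb1 (0.986) and Pgrmc1 (0.984), none of which differed past the threshold in edgeR. Plau had the loosest neighbours, Ccn4 (r = 0.953), Clcn4 (0.951) and S1pr3 (0.942), with the gene at rank 100 at 0.846. Since the genotypes were separated in Plaur and Plat, these correlations carry the difference between the groups as well as the spread within them.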

How the data were processed

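The authors deposited unnormalized read counts for each gene and library; the submitters' processing notes list FastQC 0.11.9, HISAT2 2.2.1, HTSeq 2.0.2, DESeq2 1.38.3 and GRCm39. Messenger RNA was captured by poly(A), per the labels' protocols. Rows that name no gene, 30.1 to 32.7% of the reads listed for Tnc-/-, were left out, and no column was unmapped (0 columns).

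Genes passing filterByExpr were fitted in edgeR 4.0.16 (R 4.3.3) with TMM, robust dispersions and genotype as the 1 term; an SE is the log2 fold change over the root of its F statistic. Alternatives used DESeq2 1.42.0 and limma 3.58.1. The fit was tested on simulated counts with the same mean share per gene in all libraries, apart from genes given a known fold. Differences in background between the wild-type libraries were not simulated. Spans, exon lengths and overlaps came from GENCODE M21 (GRCm38), not the authors' build. The genes and lists were chosen with earlier results of these data known. Named genes are the 4 genes, their called pathway genes and, for each, the 3 most correlated genes with at least 5 CPM in a group (prior count 2); other pathway genes and the marker ratios were chosen after their values were seen. Single values were compared by exact two-sided permutation, doubling the smaller tail. The pathway list is a hand-made selection and not a full roster of the plasminogen activator system: at least 1 further known inhibitor was not analysed here, so the counts of inhibitors refer to the listed genes only.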

Additional observations from a re-analysis of the deposited data

How the results depend on the processing

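The count of genes past the threshold, 5159, was 9423 with DESeq2 on 29121 genes, without the filter of edgeR (6249 on the same 17791 genes, an alternative added after seeing the data; 7648 in edgeR with no filter), 1943 with DESeq2 and Bonferroni adjustment, 22 with edgeR and Bonferroni adjustment, 973 with limma voom, 397 with the background covariate, 825 with wild-type library 1 alone and 1713 with the replicate number as a block; leaving out 1 library gave 2229 to 14113. For the pathway list the count of 5 became 8 (of 22 tested; 6 of 19 on the genes edgeR tested), 0, 0, 1, 0, 0 and 1 in the same order, and 1 to 12 when leaving out 1 library. Plaur lost its call with edgeR and Bonferroni adjustment (log2 fold change 0.91), the covariate (0.75) and wild-type library 1 alone (0.80), and kept it in 18 of 21. Plat passed the threshold with DESeq2 (-0.39, and -0.40 on the genes edgeR tested), in edgeR with size factors from DESeq2 (-0.40), library totals (-0.60) or upper quartiles (-0.42), and with at least 10 counts in every library (-0.44). Plau turned to 0.0074 with no filter and to 0.11 without wild-type library 1, Serpine2 to 0.19 without that library, and Pdgfd to 0.15 with the covariate. With the covariate Serpine2 moved the other way, to -0.63, and Plau to -0.34, neither past the threshold (edgeR, adjusted p = 0.198 and 0.474). Leaving out 1 library gave -0.15 to 0.11 for Plau, 0.82 to 1.05 for Plaur, -0.40 to -0.28 for Plat and -0.24 to 0.19 for Serpine2. Each of the 6 ratios moved by less than its pooled within-group SD in its 8 alternatives, but leaving out 1 library gave -0.47 to -0.11 for Plat per Serpine2 and -0.08 to 0.09 for Plau per Serpine2. With wild-type library 1 alone the spread is that of Tnc-/- only. The background covariate was higher in every wild-type library than in any Tnc-/- library, so it overlaps with genotype. The other causes were not tested. Samples with the same replicate number did not deviate together (correlations across genes of -0.03, 0.07 and -0.01), so the block pairs only numbers; with it Plaur had a log2 fold change of 0.89 (edgeR, adjusted p = 0.0332). Each of the 4 genes had at least 423 reads in every library.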
